A study of Homo sapiens with 2 samples.

Results

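The PTBP paralogs and selected hnRNP genes were followed through RNA immunoprecipitation followed by sequencing (RIP-seq) of MKN-28, a gastric cancer line long kept in culture. The 8 genes were PTBP1, PTBP2, PTBP3, HNRNPM, HNRNPUL1, HNRNPLL, RALY and HNRNPK. Peaks were taken for a gene where the mRNA table of the authors carried its symbol. Of the 8 genes, 5 were among the 5186 genes of that table, and they held 12 of its 8479 peaks. The first group was RNA recovered with a PTBP1 antibody, and it was set against RNA recovered with normal rabbit IgG from the same untreated cells, with 1 library for each. The fold enrichment of a peak is PTBP1 over the IgG background as the authors gave it, and the tags of a peak are the sequenced fragments counted inside it. With 1 library per group there was no replicate check, so every value below describes these libraries and no test between them was made. Total tags per library are not given in the sources used here.

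PTBP1 is an RNA-binding protein with RNA recognition motifs that bind pyrimidine-rich stretches, and it represses exons and affects RNA stability and translation. It belongs to the heterogeneous nuclear ribonucleoproteins (hnRNPs), which coat newly made transcripts. PTBP2 is the paralog best known from neurons, and PTBP3 was first described in blood cells. The family is known for controlling itself and its relatives: PTBP1 promotes skipping of an exon in its own transcript and in that of PTBP2, which sends these RNAs to nonsense-mediated decay. The comparison therefore asked whether RNAs that encode the antibody's own target and its relatives were recovered with it, and where along each gene.

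Among the peaks named for the 8 genes, PTBP3 carried most of the tags. Peaks on or beside these genes that were named for other genes are not in this count and are given below. It had 4 peaks, and 3 of them lay in exons. All 4 lay wholly inside the transcript to which they were paired (chromosome 9, from its start at 115095306 to its end at 114979994 on the minus strand of hg19). By contrast, no peak was named for PTBP1, for PTBP2 or for HNRNPK, the poly(C)-binding hnRNP. HNRNPM and HNRNPLL had 2 peaks each, HNRNPUL1 had 3 and RALY had 1. As a background, 25.6% of all RefSeq protein-coding genes had a named peak in this table. The 5 of 8 genes with a peak cannot be read against that share, because the genes were listed with their peaks already known.

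**Figure D1:**
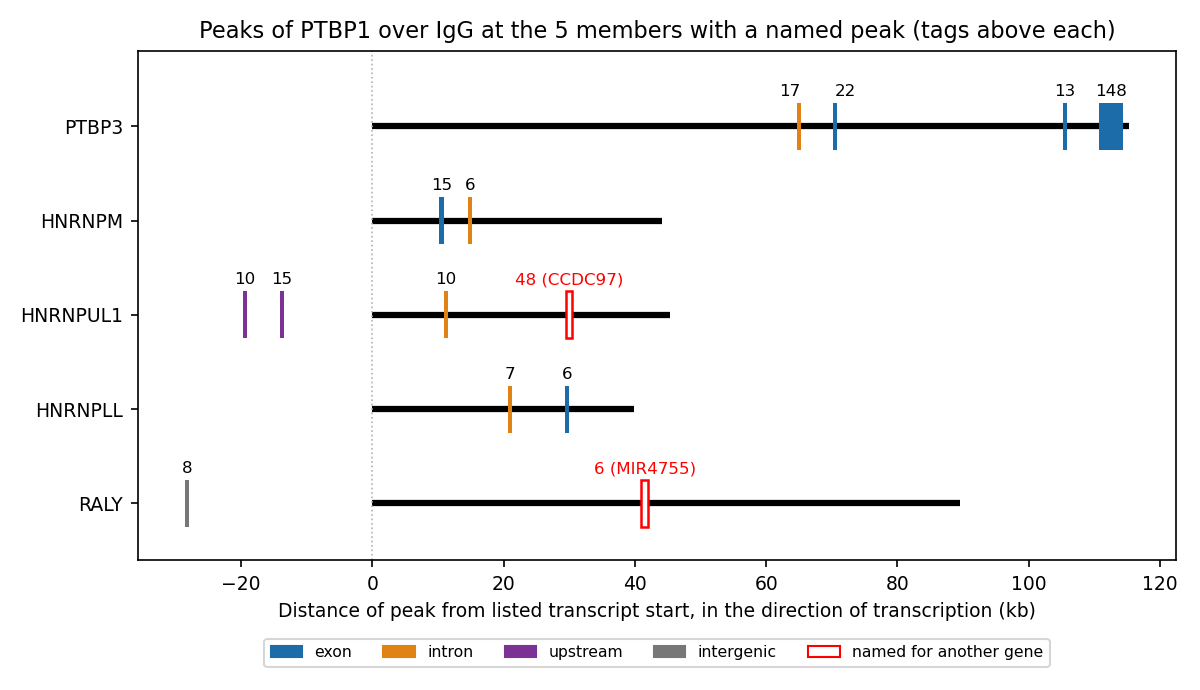
Peaks at the 5 genes with a named peak, by distance in kb from the start of the longest listed transcript (horizontal axis, in the direction of transcription). Black bars are the transcripts, coloured blocks are peaks by class, open red blocks are peaks named for another gene that lie inside the transcript, and the number printed over each block is its tag count. PTBP3 alone has a broad block, of 148 tags, at its 3′ end, while 2 HNRNPUL1 peaks and the RALY peak lie before the transcript start.

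The largest PTBP3 peak covered 3748 bases of the 3′ end (chromosome 9, 114980918 to 114984665) and was annotated as exon. It held 148 tags (exact Poisson 95% interval 125 to 174, counting error only) at 9.57-fold. Its centre lay 97.6% of the way along the transcript, and its edge was 924 bases from the listed transcript end. Among the 2747 exon peaks of the table it ranked 215th by tags and 42nd by length. The fold was high among the 818 peaks with at least 100 tags. Of these, 17, this one included, reached 9.57-fold or more, and the median of the 818 was 4.59-fold. The 818 peaks ranged up to 8269 tags and were not matched to this peak for depth. The deposited false discovery rate of this PTBP3 peak was 100%.

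The second PTBP3 exon peak (114989677 to 114990003) also lay in the last 10% of the transcript, 91.5% along. It held 13 tags (interval 6.92 to 22.2) at 5.55-fold, the lowest fold of the 12 peaks. The remaining exon peak (115024702 to 115024930) was 61.1% along and held 22 tags (13.8 to 33.3) at 6.57-fold. It was short, 229 bases, and was the densest of the 12 peaks, with 96.1 tags per 1000 bases of peak against 39.5 for the peak at the 3′ end. The intron peak (115030003 to 115030529) lay 56.4% along, with 17 tags (9.90 to 27.2) and 12.84-fold, the highest fold of PTBP3. No PTBP3 peak lay in the first 50% of the transcript.

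Together the 4 PTBP3 peaks held 200 tags, 72.2% of the 277 tags of all 12 peaks. The peak at the 3′ end alone held 74.0% of the PTBP3 tags (95% Wilson interval 67.5 to 79.6%). Few genes had as many peaks, since 6.40% of the genes in the table had 4 or more. This share was not matched for transcript length, which was 115313 bases for PTBP3, and PTBP3 was listed with its peaks already known. The table paired these peaks with a single PTBP3 transcript, although RefSeq now lists 8 curated coding transcripts for the gene, so the positions hold for that transcript only. The exon peaks nearest to the large PTBP3 peak in log2 tags, fold and length, of 2746 compared, were those of SEL1L (152 tags, 8.12-fold, 4078 bases), ELF4 (148 tags, 8.35-fold, 2914 bases) and MMGT1 (158 tags, 7.54-fold, 3227 bases). These lay 94.3%, 97.3% and 77.0% along their transcripts.

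No row of the mRNA or lncRNA table carried the symbol PTBP1, whose protein was the antibody's target, or an older symbol of it. A peak in its neighbourhood did appear in the lncRNA table. It covered 1679 bases of chromosome 19 (810664 to 812342), was named for the microRNA gene MIR3187 and lay 2080 bases before its start. It held 488 tags (446 to 533) at 5.00-fold, or 291 tags per 1000 bases of peak. By tags it ranked 58th of the 2849 peaks of that table. In the RefSeq gene order MIR3187 comes 3 genes after PTBP1, and the peak was on the PTBP1 side of MIR3187. The hg19 position of PTBP1 was not available here, so whether this peak lies on PTBP1 was not tested. It was looked for after the absence of PTBP1 rows had been seen. Peaks of any tag count on the near side of a neighbour, within 20000 bases of the start of that neighbour, were common. They were found for 24.5% of the RefSeq protein-coding genes without a named peak. How often a neighbour's peak held as many as 488 tags was not counted.

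For PTBP2 and HNRNPK the same search returned nothing. None of the 3 RefSeq genes on either side of PTBP2 had a peak in either table, and none of those around HNRNPK did, among them the microRNA gene MIR7-1 and the antisense gene HNRNPK-AS1. A missing peak does not show that the RNA was absent from the immunoprecipitate, since expression in these cells was not measured in these data.

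HNRNPM, a splicing regulator, had its higher peak in an exon in the first part of the gene (chromosome 19, 8520018 to 8520662). This peak held 15 tags (8.40 to 24.7) at 12.18-fold and lay 23.8% along the transcript. The other HNRNPM peak was in an intron (8524409 to 8524933), 33.6% along, with 6 tags (2.202 to 13.1) at 7.36-fold. Both HNRNPM peaks thus lay nearer to the start of the gene than any PTBP3 peak did, as a share of the transcript. Their intervals overlapped, so the peaks could not be ranked by tags.

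HNRNPLL, a relative of HNRNPL that is known for controlling CD45 splicing in T cells, had peaks of 6 and 7 tags. The exon peak (chromosome 2, 38800350 to 38800552) held 6 tags (2.202 to 13.1) at 11.04-fold and lay 74.6% along the transcript. The intron peak (38808936 to 38809416) held 7 tags (2.81 to 14.4) at 7.53-fold and lay 52.7% along. The fewest tags of any peak in the table were 6, and no peak of 6 tags exceeded 11.04-fold. Of the 1162 peaks with 6 tags, 370 stood at exactly this fold, HNRNPLL included. The fold of the HNRNPLL exon peak was therefore the ceiling for its depth and does not rank it.

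The same value recurred. In all, 583 peaks (6.88%) had a fold of 11.04, the most common fold in the table, and their median was 6 tags. The best peak of RALY and the intron peak of HNRNPUL1 were among them, so 3 of the 12 peaks shared this fold. The peaks at 11.04-fold held between 6 and 25 tags.

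HNRNPUL1, a relative of hnRNP U, had the highest fold of the 8 genes, but not on its own transcript. Its best peak (chromosome 19, 41754310 to 41754844) was classed as upstream and held 15 tags (8.40 to 24.7) at 16.96-fold, 13803 bases before the nearest listed HNRNPUL1 start. The other upstream peak (41748758 to 41749234) held 10 tags (4.795 to 18.4) at 11.20-fold. Both of these peaks lay entirely within the listed transcript of AXL, a receptor tyrosine kinase encoded next to HNRNPUL1 on the same strand (41725103 to 41767672). Another 3 peaks of the table were named for AXL itself, with 18, 43 and 25 tags.

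The third HNRNPUL1 peak lay on the gene, in an intron (41779249 to 41779895), with 10 tags (4.795 to 18.4) at 11.04-fold and 24.7% along. A further peak inside HNRNPUL1 had been named for CCDC97, whose start it preceded by 17708 bases. That peak (41798089 to 41798629) held 48 tags (35.4 to 63.6) at 4.71-fold, more tags than the 3 peaks named for HNRNPUL1 together, which held 35. It lay 66.2% along HNRNPUL1.

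RALY, an hnRNP related to hnRNP C, was named for 1 intergenic peak (chromosome 20, 32552961 to 32553417) of 8 tags (3.45 to 15.8) at 11.04-fold. This peak was 28268 bases before the RALY start and overlapped no transcript of the tables. A peak that does lie inside RALY was named for the microRNA gene MIR4755 in the lncRNA table (32622681 to 32623224). It held 6 tags (2.202 to 13.1) at 9.20-fold and lay 46.3% along RALY, 13972 bases before the MIR4755 start. The intervals of the RALY peaks overlapped, so neither peak stood above the other in tags.

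The gene name attached to a peak thus did not settle which gene it lay on. Of the 10254 peaks over both tables, 93.0% were named for a gene whose start was the nearest of all starts in the tables. A peak far inside a long gene could thereby take the name of a neighbour, as at HNRNPUL1 and RALY. Counting only peaks named for the gene itself, 4 of the 8 genes had a peak that overlapped their transcript, and the share over all RefSeq protein-coding genes was 17.9%. The 4 of 8 cannot be read against that share either, because the genes were listed with their peaks already known. Among genes with a named peak the 4 of 5 stood beside 69.6% over the whole table. Counting peaks of any name, an alternative chosen after seeing the data, 5 of the 5 genes with a listed transcript had one on it, as did 72% of all genes of the mRNA table.

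Of the 12 peaks, 5 were in exons, 4 in introns, 2 in the upstream class and 1 in an intergenic region. None fell in the promoter class, which reached 20.9% of all peaks in the table (95% Wilson interval 20.02 to 21.8%). The exon and intron shares of all peaks were 32.4% and 15.1%. Of the 5 exon peaks, 2 were in the last 10% of the transcript, both of PTBP3, and 35.1% of the 2747 exon peaks of the table lay there. The 4 intron peaks lay between 24.7% and 56.4% along their transcripts, and the median of all 1281 intron peaks was 48.4%.

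**Figure D2:**
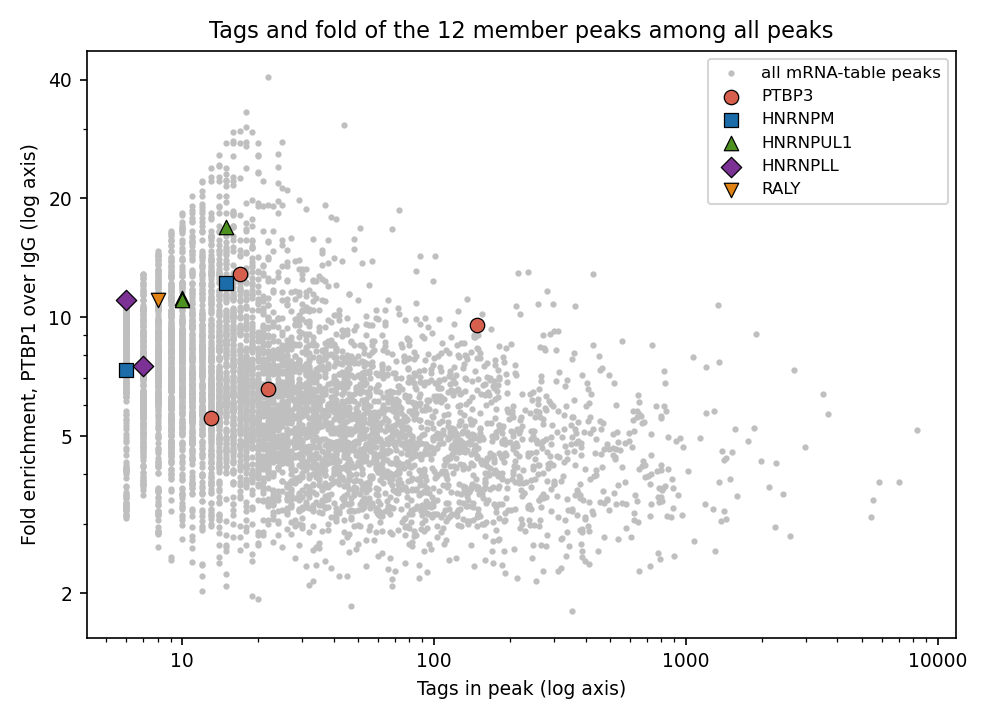
Fold enrichment of PTBP1 over IgG against tags in the peak, both on log axes, for every peak of the mRNA table (grey) and for the 12 peaks of the 5 genes (coloured symbols). The PTBP3 peak of 148 tags at 9.57-fold stands near the upper edge of the peaks with at least 100 tags. The HNRNPLL exon peak of 6 tags lies at the top of the leftmost column.

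Outside PTBP3, the peaks held 6 to 15 tags each. The median over the 12 peaks was 11.5 tags, against 13 over all peaks of the table, and it was 9 for the 8 peaks not named for PTBP3. Fewer than 20 tags were found in 10 of the 12 peaks and in 63.4% of all peaks. Apart from PTBP3, none of the 5 genes had a peak of 20 tags or more under its own name.

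The folds of these genes were higher than the typical fold. Taking the best peak of each gene, the median fold was 12.18 over the 5 genes and 7.96 over all genes of the table. Peaks of few tags had higher folds in the table as a whole. The median fold was 9.2 for peaks of 6 tags, 8.7 for 10 tags and 7.27 for 15 tags, against 4.59 for peaks of at least 100 tags. The comparison of best folds was not matched for tags. Each of the 5 genes had a best fold of at least 10, as did 32.9% of all genes in the table. For RALY and HNRNPUL1 this best peak lay outside the gene. On the transcript, HNRNPUL1 reached 11.04-fold under its own name, and the peak inside RALY, named for MIR4755, 9.20-fold. With overlapping peaks only, chosen after seeing the data, the median of the best fold was 11.61 over 4 genes and 7.6 over all genes with such a peak. All 4 then reached 10-fold, as did 30.7% of those genes. These folds give no support for a high recovery of the family, because the genes were chosen with their folds known. The deposited false discovery rate lay between 43.5% and 50.68% for 10 of the 12 peaks. It was 100% for the PTBP3 peak at the 3′ end and 91.7% for the PTBP3 peak of 22 tags, which had the highest p scores of the 12 (336.17 and 169.38). This score is 10 times the −log10 of the p-value of a peak. No peak in the table had a false discovery rate below 43.06%.

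**Figure D3:**
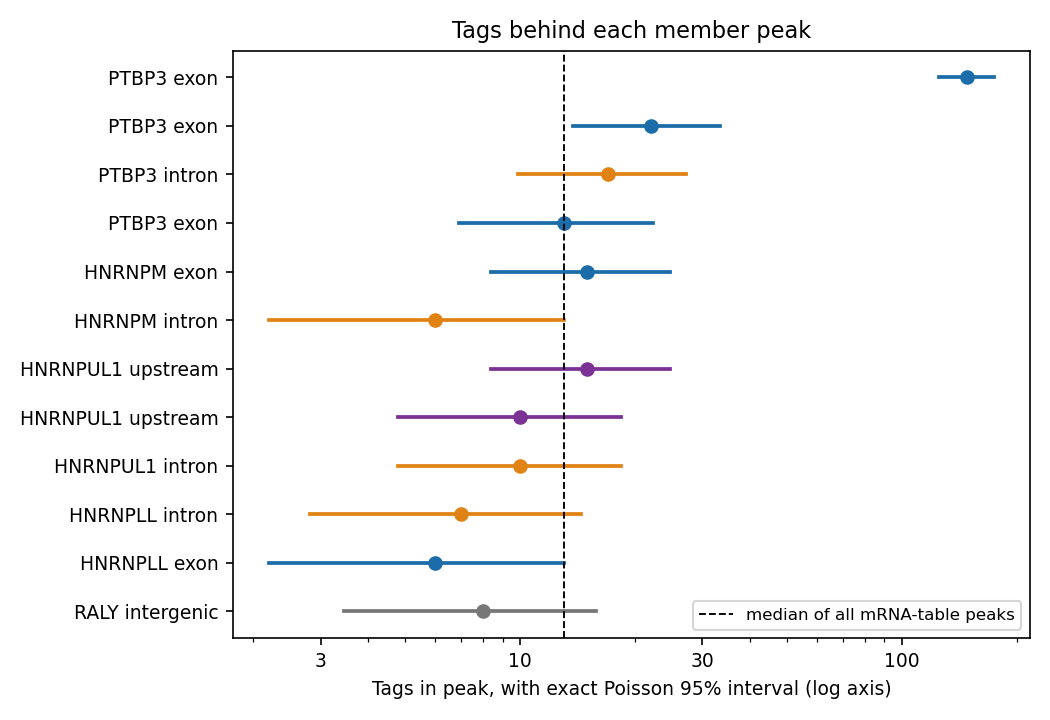
Tags in each of the 12 peaks (points, log axis) with exact Poisson 95% intervals (lines), coloured by annotation class as blue for exon, orange for intron, purple for upstream and grey for intergenic. The dashed line is the median of all peaks, 13 tags. The intervals of the PTBP3 peaks of 148 and 22 tags lie above the line, and those of the other 10 peaks include it.

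The wider hnRNP family was described with a list of 34 genes that holds the 8 genes above, and 12 of the 34 had a named peak. That is 35.3% (95% Wilson interval 21.5 to 52.1%), beside 25.6% of all protein-coding genes. Of the other 26 genes, 7 had a named peak (26.9%, 13.7 to 46.1%). An overlapping peak was found at 6 of the 26 (23.1%, 11.03 to 42.1%), beside 17.9% of all protein-coding genes. Neither list can be read against these shares, because the 8 genes kept in or taken out were listed with their peaks already known. The median of the best fold over the 7 other genes with a named peak was 7.83. Among them were RBMX, HNRNPR, HNRNPL, HNRNPD, HNRNPCL1 and PCBP4.

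HNRNPR had 3 intron peaks of 9, 6 and 7 tags, at 7.83-fold, 10.44-fold and 4.93-fold. All lay between 52.2% and 62.8% along the gene. HNRNPD, the AU-rich element binding protein AUF1, had an intron peak of 46 tags at 7.83-fold, 82.02% along, and, 244358 bases after its start, an intergenic peak of 34 tags at 5.53-fold. HNRNPL, the closest relative of HNRNPLL, had a promoter peak of 21 tags at 9.39-fold, centred 137 bases after its start. Unlike the HNRNPLL peaks, this peak sat at the beginning of the gene.

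PCBP4, a KH-domain protein of the same type as HNRNPK, had a peak of 325 tags at 3.97-fold, 1625 bases before its start and outside the transcript. The other PCBP4 peak was in an exon 94.2% along, with 39 tags at 4.82-fold. RBMX, the hnRNP G protein, was named for a peak of 22 tags at 12.58-fold in an intergenic region, 50242 bases before its start.

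HNRNPCL1, a gene copy related to HNRNPC, had a promoter peak of 79 tags at 7.42-fold. The same peak was named for its near copies HNRNPCL3 and HNRNPCL4, and reads could be shared between such copies and HNRNPC, for which no peak was named, so this assignment is uncertain. No peak was named for the other 19 genes, among them HNRNPA1, HNRNPA2B1, HNRNPC, HNRNPF, HNRNPH1, HNRNPU, SYNCRIP, PCBP1 and PCBP2. Of the PTBP cofactors MATR3, RAVER1 and RAVER2, only RAVER2 was named, for an intergenic peak 53503 bases before its start, with 8 tags at 7.83-fold.

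**Figure D4:**
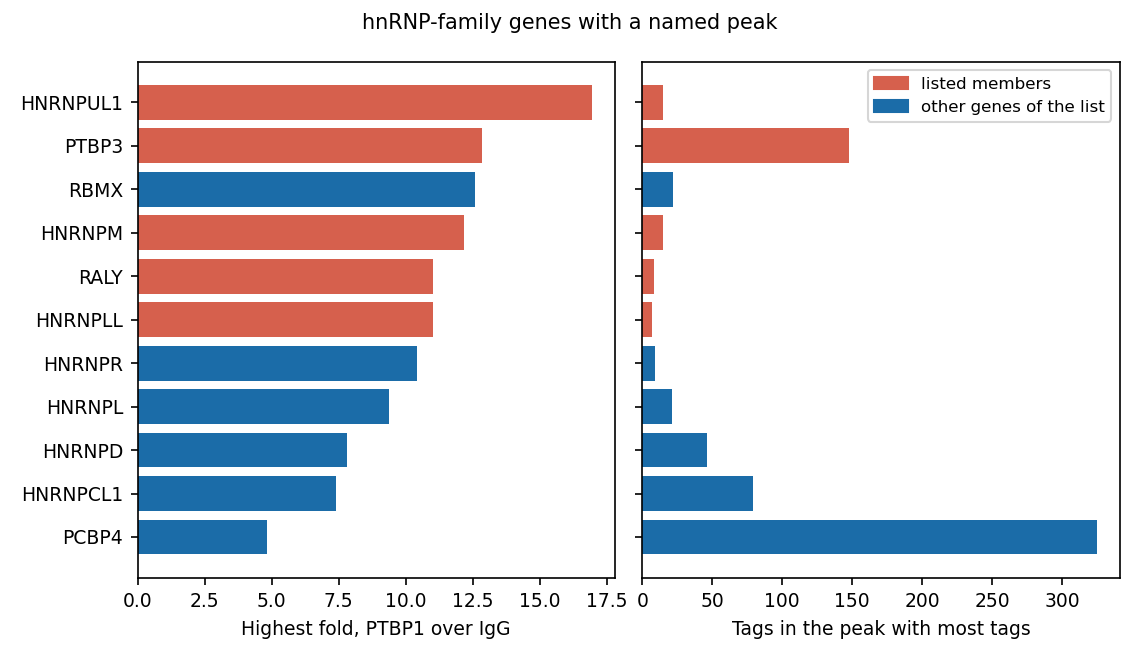
Highest fold enrichment of PTBP1 over IgG (left) and tags in the peak with the most tags (right) for the genes of the hnRNP list whose peaks are described here, with the 5 genes followed here in red and the others in blue. The order by fold, from HNRNPUL1 at 16.96 to PCBP4 at 4.82, differs from that by tags, where PCBP4 (325 tags) and PTBP3 (148 tags) stand first.

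Markers of cell types were looked up in the same table. Gastric epithelial markers had a peak at 2 of 10 genes (MUC1 and CLDN18), general epithelial markers at 0 of 6, blood markers at 0 of 4 and stromal and endothelial markers at 1 of 5 (COL1A1). Against the 25.6% of all protein-coding genes with a named peak, these counts over short lists cannot check the cell label, and peaks over IgG are no expression levels.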

How the data were processed

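RIP-seq was made in MKN-28 cells with a PTBP1 antibody or normal rabbit IgG, 1 library each, after removal of ribosomal RNA. The processing notes of the submitters list cutadapt 1.9.3, Bowtie2 2.2.4 and, as the build, hg19. Which program called the peaks is not stated in the sources used. The authors deposited peaks of PTBP1 over IgG, paired with RefSeq transcripts, in 4 tables, and both promoter tables repeated the promoter rows of the full ones. The deposited values were tag counts per peak (the header does not name the library), the fold enrichment as a ratio, the p score and the false discovery rate in percent.

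Each peak was counted once per gene, and overlap meant at least 1 shared base with a listed transcript. Position was the distance of the peak centre from the start of the longest listed transcript divided by its length. Tag intervals are exact Poisson and shares have Wilson intervals at 95%. The genes and lists were chosen with earlier results of these data known. Named were the 8 genes, genes on or beside their peaks, hnRNP-family genes with a peak, PTBP cofactors and the 3 exon peaks most like the largest PTBP3 peak. RefSeq (GRCh38.p14) was used for names, gene order and the 20056 protein-coding genes. Functions were tested on simulated data. Total tags per library are unknown, so precision rests on the tags of each peak. Alternatives were fold minimums of 4 and 10, a p score of 50, 20 tags, stricter overlap, both tables, merged peaks, the fold of the peak with most tags and, chosen after seeing the data, peaks of any name, peaks of neighbouring genes and the best fold over overlapping peaks. The tools were scipy (1.17.1), numpy (2.4.6), pandas (2.3.3) and matplotlib (3.10.9) under Python (3.11.15). Peak sequences were not analysed here. The peaks of 1 hnRNP-family gene are counted but not reported here.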

Additional observations from a re-analysis of the deposited data

Results flagged for a closer look

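The lncRNA table held peaks that the mRNA table did not, on the near side of a neighbour (within 3 genes in RefSeq order) of family genes with no peak of their own on the transcript. The peak named for MIR3187, beside PTBP1, stood at 5.00-fold over IgG with 488 tags. The peak named for MIR4755, inside RALY, stood at 9.20-fold with 6 tags. Beside HNRNPA1, a peak named for MIR3198-2, which is 3 genes away, held 886 tags at 10.96-fold, more tags than the peak beside PTBP1. This MIR3198-2 peak was the longest of the lncRNA table, 11033 bases against 1679 for the MIR3187 peak. Per kb of peak it held fewer tags than the MIR3187 peak, 80.3 against 291. It also covered the MIR3198-2 start. A peak named for MIR4444-1, beside HNRNPA3, held 115 tags at 6.27-fold. It was intergenic and 21297 bases after the MIR4444-1 start, beyond the 20000 bases allowed in the neighbour counts. A peak named for PHYKPL, beside HNRNPAB, held 7 tags at 9.13-fold. It was classed as an intron peak of PHYKPL, 8315 bases after the PHYKPL start. PCBP2, a poly(C)-binding relative of HNRNPK, had no peak under its own name, but PCBP2-OT1, the RefSeq gene next to it, was named for 3 peaks before its start (chromosome 12, 53848213 to 53848725, 53849412 to 53849864 and 53852912 to 53853251). These held 74, 167 and 132 tags at 4.55-fold, 3.19-fold and 2.60-fold, and lay 9782, 8613 and 5170 bases before the PCBP2-OT1 start. Apart from the peak inside RALY, whether these peaks lie on the family gene was not tested.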

How the results depend on the processing

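Depth decided most of what could be said. With at least 20 tags per peak, 1 of the 8 genes kept a named peak and 1 an overlapping peak, namely PTBP3. The median was 85 tags over 2 exon peaks, and 0 intron, 0 upstream and 0 intergenic peaks were left. The deposited false discovery rates of these 2 exon peaks were 100% and 91.7%. With the same tag minimum, the wider list of 34 genes had 7 genes with a peak and 6 with an overlapping one, against 12 and 10 as deposited. With a fold of at least 10 the wider list had 7 and 5, and the 8 genes kept 2 exon and 2 intron peaks. With a p score of at least 50 they kept 2 intron peaks. These counts are lower because fewer peaks were kept. The other values for these alternatives, and those for stricter overlap, both tables, merged peaks and a fold of at least 4, stayed within 1.5 times the values above. Counting peaks of neighbouring genes, chosen after seeing the data, gave 6 of 8 genes, PTBP1 included. It added 1 of the 3 genes without a named peak and 8 of the other 19 genes of the wider list, against 24.5% of protein-coding genes without one. No paired analysis was possible because each group had 1 library.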

Other observations

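HNRNPA1P33, a pseudogene of HNRNPA1, was named in the lncRNA table for an intergenic peak of 7 tags at 12.88-fold and a promoter peak of 6 tags at 8.46-fold (chromosome 10), and neither overlapped its transcript. No other gene of the lncRNA table had a symbol that began with HNRN, PTBP or RALY.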
